A study of Mus musculus with 6 samples.

Results

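The genes described here are 10 serotonin receptor genes measured by RNA Seq in the pre-limbic cortex (PLc) of ketamine-treated and saline-treated mice. They are Htr1a, Htr1b, Htr1d, Htr1f, Htr2a, Htr2c, Htr3a, Htr4, Htr5a and Htr7, and they were picked by symbol from the 37620 genes of the deposited table. All 10 were among the 16127 genes that passed a filter of at least 10 normalized counts on average over the 6 mice. Htr1d passed only through the ketamine-treated mice, since its mean was 9.85 in saline mice. Mice were C57Bl/6 wild-type animals, 9 weeks of age and male by the study's methods. Each day for 5 days, ketamine-treated mice were injected intraperitoneally with ketamine at 30 mg/kg and control mice with saline vehicle, and the PLc was dissected 2 days later. The ketamine-treated mice carry the numbers 3, 5 and 9 and the saline mice the numbers 1, 6 and 10, and each mouse gave 1 library.

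Serotonin reaches the prefrontal cortex through fibres of raphe neurons, whose cell bodies lie in the brainstem. Its receptors are G-protein-coupled, apart from the 5-HT3 receptor, which is a cation channel. The 5-HT1 and 5-HT5 receptors couple to Gi/o and lower cAMP, the 5-HT2 receptors couple to Gq and mobilise calcium, and the 5-HT4, 5-HT6 and 5-HT7 receptors couple to Gs and raise cAMP. In the prefrontal cortex, 5-HT1A and 5-HT2A receptors are known for opposite effects on the firing of pyramidal neurons, and 5-HT3A marks a large group of interneurons outside the parvalbumin and somatostatin types.

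The recovered reads counted to genes ran from 26273436 to 32643726 per library, and several libraries stood apart by markers of other tissue. Values are normalized counts, namely reads scaled by the size factor of their library. The summed level of 14 striatal medium spiny neuron markers reached 71880 in ketamine mouse 3 and 36297 in ketamine mouse 5. In the other mice it was 10092 to 12221. All 14 had a log2 fold change above 0. Of them, 5 were higher in every ketamine-treated mouse, mouse 9 included, than in every saline mouse, against 5.69% of all genes tested. The summed level of 8 mitral and tufted cell markers of the olfactory bulb was 164 to 302 in saline mice, 1523 in ketamine mouse 3, 1149 in mouse 5 and 8201 in mouse 9. The groups also did not overlap in the sums of 9 markers of olfactory bulb and migrating interneurons (4631 to 8212 in saline, 13197 to 22525 in ketamine) and of 4 GABAergic neuron markers (25019 to 29501 in saline, 33236 to 51463 in ketamine). Saline mouse 10 had 355761 normalized counts of 5 oligodendrocyte markers, against 39760 to 149418 in the other mice. Checked against the cortical label, 7 markers of cortical excitatory neurons were present in every library, with sums of 140047 to 184929 in saline and 89200 to 149777 in ketamine. All 7 had a log2 fold change below 0, with a median of -0.60. Of them, 2 were lower in every ketamine-treated mouse than in every saline mouse, against 4.66% of all genes tested. DESeq2 called 1 lower, where it called 0.229% of all genes lower. Sums of 5 markers each overlapped between saline and ketamine for claustrum (2670 to 3602 against 2762 to 4006), thalamus (1317 to 2428 against 1258 to 2416), astrocytes (25109 to 39065 against 33737 to 36385), microglia (6785 to 7892 against 7062 to 7267) and endothelial cells (4211 to 4877 against 4276 to 4701). Within these lists, 1 thalamus marker was lower in every ketamine-treated mouse than in every saline mouse, and DESeq2 called it lower. In the same way, 1 astrocyte marker was higher in every ketamine-treated mouse, and DESeq2 did not call it. The part of these differences in the results for the receptors was not tested. In tissue of mixed cells, fewer cells of a type and less RNA per cell cannot be told apart.

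The promoters of Htr1d and Htr2c are shown because these were the members whose expression separated the groups. They are RefSeq windows of 250 bases before and 50 bases after a transcript start on GRCm38.p6, whereas gene positions elsewhere are on mm9. Capitals mark matches to 5 motifs searched on both strands, namely the TATA box TATAAA, the box CCAAT, the GC box GGGCGG, the cAMP response element TGACGTCA and the E-box CACGTG.
Htr1d, chr4:136423274-136423573, plus strand: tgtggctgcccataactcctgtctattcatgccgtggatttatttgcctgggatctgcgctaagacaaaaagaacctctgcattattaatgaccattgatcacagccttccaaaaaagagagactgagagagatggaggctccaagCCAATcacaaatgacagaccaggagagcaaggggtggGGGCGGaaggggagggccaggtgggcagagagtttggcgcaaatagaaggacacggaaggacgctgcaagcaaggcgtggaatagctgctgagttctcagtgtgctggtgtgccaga
Htr1d, chr4:136424362-136424661, plus strand: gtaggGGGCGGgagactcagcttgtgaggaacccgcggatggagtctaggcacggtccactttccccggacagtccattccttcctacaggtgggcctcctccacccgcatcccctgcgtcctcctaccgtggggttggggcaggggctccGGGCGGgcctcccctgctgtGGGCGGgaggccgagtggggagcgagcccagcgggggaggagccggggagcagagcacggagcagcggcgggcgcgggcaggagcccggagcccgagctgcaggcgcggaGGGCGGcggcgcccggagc
Htr2c, chrX:146962263-146962562, plus strand: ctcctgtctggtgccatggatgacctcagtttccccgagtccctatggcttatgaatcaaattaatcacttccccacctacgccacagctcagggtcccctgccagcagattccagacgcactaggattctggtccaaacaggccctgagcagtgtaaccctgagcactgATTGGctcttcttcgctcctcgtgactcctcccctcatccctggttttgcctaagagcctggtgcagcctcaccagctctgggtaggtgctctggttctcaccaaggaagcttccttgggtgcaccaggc
The windows of Htr1d hold a CCAAT and a GGGCGG in the upstream window and 4 matches to GGGCGG in the downstream window. The window of Htr2c holds a CCAAT on the minus strand. CCAAT is found in 37.4% and GGGCGG in 35.7% of 32851 RefSeq promoter windows of this length. TATAAA (13.6% of windows), TGACGTCA (1.79%) and CACGTG (7.15%) were not found in these 3 windows. Windows of 8 of the 10 members were kept, without Htr3a and Htr4. A match to these letters is a description of the sequence and says nothing on the binding of a factor.

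Of the 10 receptor genes, 2 were higher in every ketamine-treated mouse than in every saline mouse, namely Htr1d and Htr2c. Among all genes tested, 5.69% were higher in this way, and 10.3% did not overlap in either direction. None of the 10 passed an adjusted p of 0.05 with limma on log2(normalized count + 1), which called 0% of all genes, and none passed with edgeR's quasi-likelihood test on the recovered reads, which also called 0%. Both genes had an unadjusted p under 0.05 with limma and with edgeR, as 5.81% of genes had with limma (3.44% higher and 2.37% lower). DESeq2 on the recovered reads, the package of the study's methods, called both higher, where it called 1.13% of all genes, 0.899% higher and 0.229% lower in ketamine. Htr1d passed the filter only through the ketamine-treated mice, so its place in these counts is a description. The other 8 receptor genes overlapped between the groups, and none of them was called with any of these tools.

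**Figure D1:**
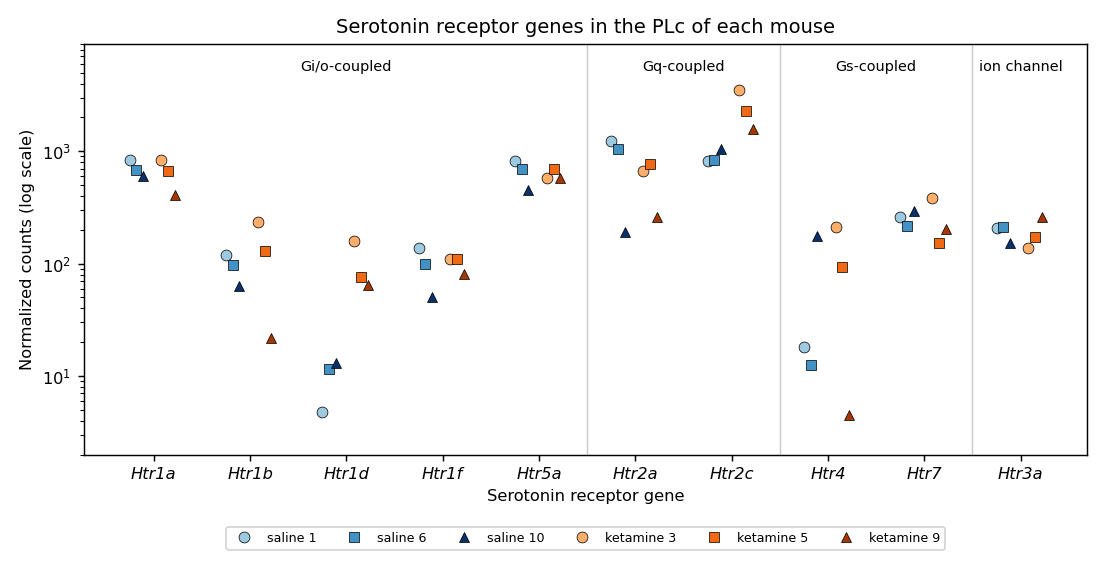
Normalized counts (log scale) of the 10 serotonin receptor genes in each of the 6 mice, grouped by the coupling of the receptor, with saline mice in blue and ketamine-treated mice in orange. Htr1d and Htr2c separate the groups, and the points of the other 8 genes overlap.

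Among the Gi/o-coupled receptors, Htr1d (ENSMUSG00000070687, chromosome 4 of mm9, 135979439 to 136000313, plus strand) had the largest log2 fold change of the 10 members. It encodes 5-HT1D, a receptor of axon terminals that restrains transmitter release and is a target of triptans. Its normalized counts were 4.79, 11.6 and 13.2 for saline mice 1, 6 and 10, whereas 157.6, 76.2 and 64.4 were found for ketamine mice 3, 5 and 9. The lowest ketamine-treated mouse was thus well above the highest saline mouse, and mouse 3 stood highest (p = 0.1 by a two-sided exact permutation test, which cannot go lower with 3 mice against 3). The means were 9.85 ± 4.45 and 99.4 ± 50.8 normalized counts (SD, n = 3 each), resting on 29 reads in all saline mice together and 313 in all ketamine-treated mice. The saline mean lay under the filter of 10, so Htr1d was tested only through its level in ketamine-treated mice. The log2 fold change was 3.20 with a 95% interval from 2.05 to 4.34 (adjusted p = 0.178 by limma, 0.232 by edgeR, 1.96e-06 by DESeq2). With each mouse left out in turn it stayed between 2.80 and 3.45, and the adjusted p by DESeq2 stayed at or below 0.000704. Without both ketamine mice 3 and 5 the log2 fold change was 2.69, a comparison added after seeing the data that leaves ketamine mouse 9 alone. The order of Htr1d among ketamine-treated mice, highest in mouse 3 and lowest in mouse 9, was that of the striatal markers. A part of striatal tissue in this was not tested. Ketamine mouse 9, whose striatal markers summed to the level of the saline mice, had 64.4 normalized counts of Htr1d. Of the 14 striatal markers, 5 were nevertheless above every saline mouse in it, and its sums of olfactory markers were the highest of all mice.

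Htr1a (ENSMUSG00000021721, chromosome 13, 106233773 to 106238213, plus strand) lies in a single exon and encodes 5-HT1A, an inhibitory receptor of raphe neurons and of cortical pyramidal cells. Normalized counts of Htr1a for saline mice 1, 6 and 10 were 828, 686 and 598, with 834, 660 and 411 for ketamine mice 3, 5 and 9. The groups overlapped, and mouse 9 was lowest. Its log2 fold change was -0.20 with a 95% interval from -0.83 to 0.44 (adjusted p = 0.999 by limma), and it was 0.089 without ketamine mouse 9. Htr5a (ENSMUSG00000039106, chromosome 5, 28168487 to 28181626, plus strand), which encodes another Gi/o-coupled receptor, stood at 824, 693 and 448 normalized counts for saline mice, with 575, 691 and 574 for ketamine-treated mice. Its spread was wider in saline than in ketamine. The log2 fold change of Htr5a was -0.055 with an interval from -0.61 to 0.50 (adjusted p = 0.999 by limma). Without saline mouse 1 it was 0.13, and without saline mouse 6 it was 0.0078.

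Htr1b (ENSMUSG00000049511, chromosome 9, 81524950 to 81526222, minus strand) encodes 5-HT1B, which restrains release at axon terminals, those of striatal neurons among them. Its normalized counts were 119.7, 96.5 and 63.7 for saline mice 1, 6 and 10, with 235, 129 and 21.8 for ketamine mice 3, 5 and 9. The ketamine-treated mice thus held both the highest and the lowest values, in the order of their striatal markers. Its log2 fold change was -0.043 with an interval from -1.92 to 1.83 (adjusted p = 0.999 by limma), and it turned to 0.48 with edgeR, 0.47 with DESeq2 and 0.94 without ketamine mouse 9. It was also above 0 without saline mouse 1 (0.16) or saline mouse 6 (0.0047). GENCODE annotates D430036J16Rik on the other strand over 852 of the 1273 exon bases of Htr1b. Whether reads were counted by strand is not given in the sources used here, so reads of these genes cannot be told apart. The level of D430036J16Rik ran from 43.9 to 103 normalized counts in saline and from 51.7 to 157.6 in ketamine.

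Htr1f (ENSMUSG00000050783, chromosome 16, 64924555 to 65105610, minus strand), which encodes 5-HT1F, another receptor activated by triptans, stood at 137, 99.4 and 50.5 normalized counts for saline mice, with 109.6, 111 and 81.6 for ketamine-treated mice. All ketamine-treated mice lay within the range of the saline mice. For Htr1f the log2 fold change was 0.17 with an interval from -0.70 to 1.05 (adjusted p = 0.999 by limma), and it turned to -0.22 without saline mouse 10, the lowest of the 6.

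Among the Gq-coupled receptors, Htr2c (ENSMUSG00000041380, chromosome X, 143397056 to 143631820, plus strand) was higher in ketamine. It encodes 5-HT2C, whose transcript undergoes RNA editing and is very abundant in the choroid plexus. Normalized counts were 824, 843 and 1043 for saline mice 1, 6 and 10, whereas 3475, 2286 and 1579 were found for ketamine mice 3, 5 and 9. The saline mice lay close together, and every ketamine-treated mouse was above them (p = 0.1 by the same exact permutation test). The means were 903 ± 122 and 2447 ± 958 normalized counts (SD, n = 3 each), a ratio of 2.71. For Htr2c the log2 fold change was 1.37 with a 95% interval from 0.71 to 2.03 (adjusted p = 0.344 by limma, 0.349 by edgeR, 0.000679 by DESeq2). It stayed between 1.08 without ketamine mouse 3 and 1.65 without ketamine mouse 9. Without both ketamine mice 3 and 5, those with raised sums of striatal markers, it was 0.81. This alternative was added after seeing the data and leaves ketamine mouse 9 alone. With DESeq2 the adjusted p reached 0.0457 without saline mouse 1.

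The order of Htr2c among ketamine-treated mice, highest in mouse 3 and lowest in mouse 9, was that of the striatal markers. In mouse 9 these markers summed to 10688 normalized counts, within the range of the saline mice. Of the 14 markers, 5 were nevertheless above every saline mouse in it. Htr2c was at 1579 normalized counts in mouse 9, above the 1043 of the highest saline mouse. Mitral and tufted cell markers summed to 8201 in the same mouse, against 164 to 302 in saline mice, and its sums of GABAergic and of migrating interneuron markers, 40985 and 22525, were above those of every saline mouse. Of the choroid plexus markers, Ttr had 2421 normalized counts in saline mouse 10 and between 2.87 and 118 in the other 5 mice. It was 21.5 in ketamine mouse 3, where Htr2c was highest. Folr1, another choroid plexus gene, had at most 5.87 normalized counts in a ketamine-treated mouse. Clic6 and Prlr of the same list were highest in ketamine mouse 3, at 562 and 453, against 5.44 to 186 in the other mice. The sum over 10 choroid plexus markers was 125 to 3287 in saline mice and 247 to 1261 in ketamine-treated mice, and 2 of the 10 were at 0 in at least 1 mouse.

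Htr2a (ENSMUSG00000034997, chromosome 14, 75040647 to 75106666, plus strand) encodes 5-HT2A, the receptor through which psychedelics act on cortical pyramidal neurons. Its normalized counts were 1239, 1042 and 190 for saline mice 1, 6 and 10, with 662, 766 and 258 for ketamine mice 3, 5 and 9. A single mouse in each group, saline mouse 10 and ketamine mouse 9, stood far below its companions. For Htr2a the log2 fold change was -0.30 with an interval from -2.06 to 1.45 (adjusted p = 0.999 by limma). It was -1.16 without saline mouse 10, 0.18 without ketamine mouse 9, 0.19 without saline mouse 1 and 0.065 without saline mouse 6. With saline mouse 10 and ketamine mouse 9 both left out, a comparison of 2 mice with 2 added after seeing the data, it was -0.67. The mice left out are those that stood far from their groups, so this is a description with no test. limma called 3.96% of all genes in that comparison.

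Among the Gs-coupled receptors, Htr4 (ENSMUSG00000026322, chromosome 18, 62483858 to 62627456, plus strand) varied most of the 10 members. It encodes 5-HT4, a receptor known for its expression in the striatum. Normalized counts of Htr4 for saline mice 1, 6 and 10 were 18.2, 12.6 and 177, with 210.5, 93.1 and 4.53 for ketamine mice 3, 5 and 9. The highest mouse had 46.5 times the lowest, and both were ketamine-treated. For Htr4 the log2 fold change was 0.42 with an interval from -3.08 to 3.91 (adjusted p = 0.999 by limma). It was 1.97 without ketamine mouse 9, 1.57 without saline mouse 10 and -0.65 without ketamine mouse 3. Without saline mouse 6, ketamine mouse 5 or saline mouse 1 it was -0.29, -0.070 and -0.034. Without both saline mouse 10 and ketamine mouse 9, which stood far from the other mice of their groups, it was 3.13, and without both ketamine mice 3 and 5 it was -2.70. Since these mice were left out after the values were seen, both are descriptions with no test.

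Htr7 (ENSMUSG00000024798, chromosome 19, 36033224 to 36131997, minus strand), which encodes the Gs-coupled receptor 5-HT7, stood at 262, 217 and 294 normalized counts for saline mice, with 383, 152 and 205 for ketamine-treated mice. The values overlapped and were spread more widely in ketamine. For Htr7 the log2 fold change was -0.16 with an interval from -0.95 to 0.63 (adjusted p = 0.999 by limma), and it was 0.13 without ketamine mouse 5.

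Htr3a (ENSMUSG00000032269, chromosome 9, 48707319 to 48719204, minus strand) encodes a subunit of the 5-HT3 channel. Its normalized counts were 208, 210.4 and 154 for saline mice 1, 6 and 10, with 137, 174 and 259 for ketamine mice 3, 5 and 9. The means of the groups were 190.7 ± 32.0 and 190.1 ± 62.7 (SD, n = 3 each), the closest of the 10 members. For Htr3a the log2 fold change was -0.040 with an interval from -0.67 to 0.59 (adjusted p = 0.999 by limma). It was 0.17 without ketamine mouse 3, 0.038 without saline mouse 6 and 0.029 without saline mouse 1, and with edgeR it was 0.015. The summed level of 10 genes of 5-HT3A-type interneurons, Htr3a not among them, was 23432, 24220 and 16664 for saline mice 1, 6 and 10, with 13456, 17889 and 28238 for ketamine mice 3, 5 and 9. Of the 10 genes, 5 had a log2 fold change above 0 and 5 below. In every ketamine-treated mouse 3 were higher than in every saline mouse and 1 was lower, against 5.69% and 4.66% of all genes tested. DESeq2 called Ndnf higher (log2 fold change 1.19, adjusted p = 1.08e-06), where it called 0.899% of all genes higher. limma called none of the 10. Cck and Lamp5 held 9341 and 7794 of the 23432 in saline mouse 1. Calb2, which is also expressed in the olfactory bulb, held 7274 of the 28238 in mouse 9. The sum thus rests mostly on a few genes and is no measure of this cell type alone.

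**Figure D2:**
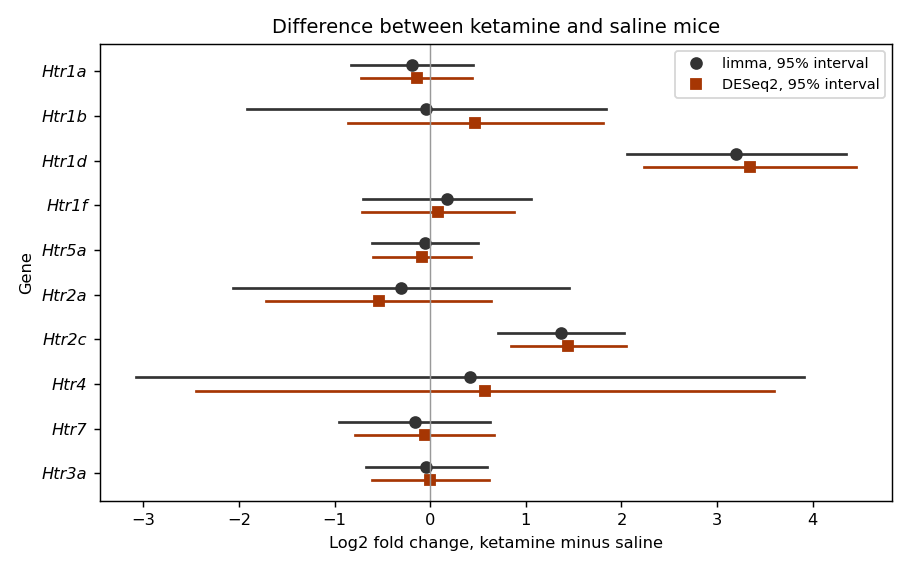
Log2 fold change of each receptor gene, ketamine minus saline, by limma (black circles) and by DESeq2 on the recovered reads (brown squares), each with its 95% interval. The intervals of Htr1d and Htr2c lie above 0, those of the other 8 genes include 0, and that of Htr4 is the widest, from -3.08 to 3.91 by limma.

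**Figure D3:**
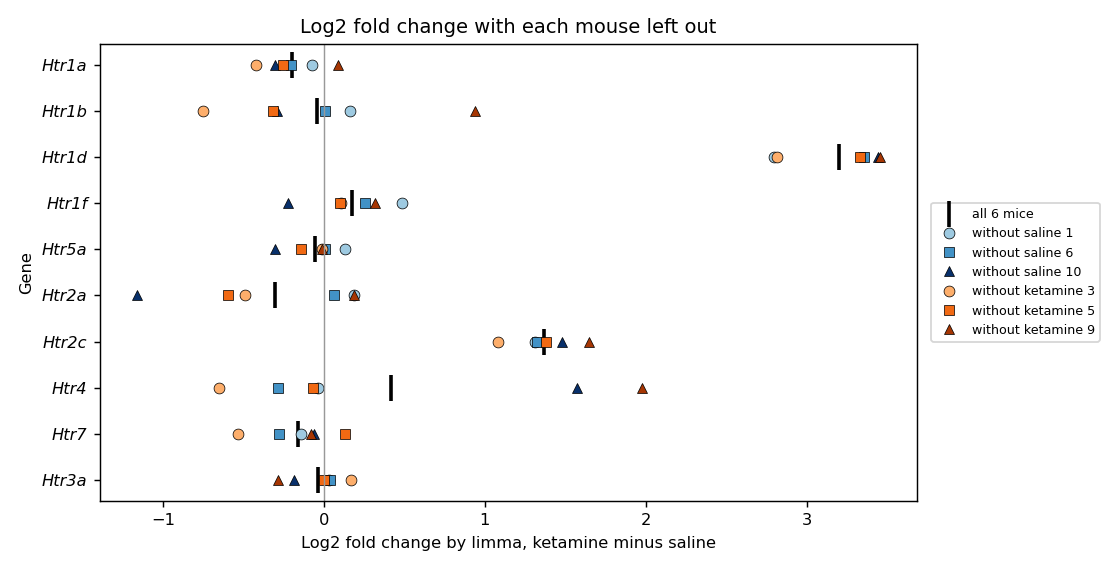
Log2 fold change by limma with all 6 mice (black bar) and with each mouse left out (coloured points, blue for saline and orange for ketamine). Htr1d stays between 2.80 and 3.45 and Htr2c between 1.08 and 1.65, while each of the other 8 genes crosses 0.

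Levels of different receptors were compared as normalized counts per kb of merged exon, in which annotated lengths run from 1273 bases for Htr1b to 9328 bases for Htr2c. In saline mice the order of these levels was Htr2a (277 ± 188), Htr1a (158.5 ± 26.0), Htr5a (117 ± 34.2), Htr2c (96.8 ± 13.0), Htr3a (91.6 ± 15.4), Htr7 (75.9 ± 11.4), Htr1b (73.3 ± 22.1), Htr1f (38.1 ± 17.3), Htr4 (14.9 ± 20.02) and Htr1d (3.08 ± 1.39), with SD and n = 3. The ranges of neighbours in this order overlapped in every case. Compared within a mouse, Htr1a was above Htr5a and Htr1b above Htr1f in all 3 saline mice, and the other neighbours changed places in at least 1. Since 852 of the 1273 exon bases of Htr1b are shared with D430036J16Rik, its level per kb is uncertain. The same holds for its place in this order and its part in sums per kb. The level per kb of Htr2a was at percentile 64.5 of the genes tested, that of Htr1a at percentile 50.3 and that of Htr1d at percentile 1.67. In ketamine-treated mice the highest level per kb was that of Htr2c, at 262 ± 103, followed by Htr2a at 189 ± 90.2. Htr1d, at 31.0 ± 15.9, was above Htr4, at 22.1 ± 22.2.

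**Figure D4:**
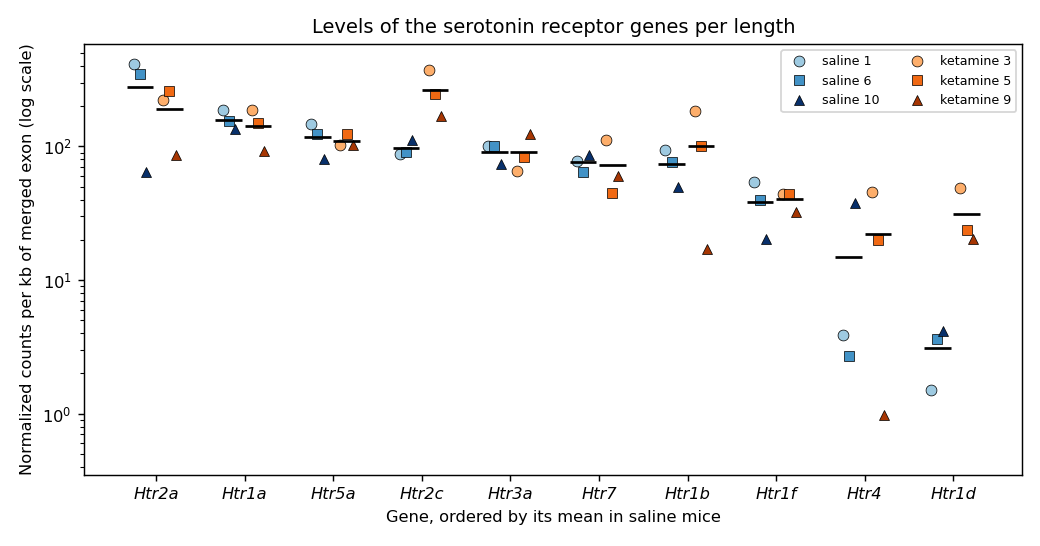
Normalized counts per kb of merged exon (log scale) of the 10 receptor genes, ordered by the mean of the saline mice, with each mouse as a point and the mean of each group as a bar. Htr2a leads in saline mice at 277, Htr2c leads in ketamine-treated mice at 262, and Htr1d is lowest in saline mice at 3.08.

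The ratio of Htr2c to Htr2a per kb, which does not depend on the scaling of a library, was 0.212, 0.257 and 1.75 for saline mice 1, 6 and 10, with 1.67, 0.951 and 1.95 for ketamine mice 3, 5 and 9. Saline mouse 10 fell among the ketamine-treated mice, so the groups overlapped (exact permutation test, two-sided, p = 0.3). Summed per kb, the 5 Gi/o-coupled members had 390 ± 97.6 in saline and 425 ± 152 in ketamine (exact permutation p = 0.8). The 2 Gq-coupled members had 374 ± 175 and 451 ± 175 (exact permutation p = 0.6), and the 2 Gs-coupled members 90.8 ± 30.2 and 94.6 ± 54.7 (exact permutation p = 1). For the Gs-coupled members the mean of log2 sums differed by -0.034, opposite in sign to the difference of these means. No coupling class separated the groups, and leaving out single mice turned the sign of each difference.

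The 4 serotonin receptor genes that are not members were at low or moderate levels. Htr6, which encodes a Gs-coupled receptor, had 94.4 to 134 normalized counts in saline mice and 69.8 to 171 in ketamine-treated mice, a log2 fold change of 0.22 (adjusted p = 0.999 by limma). Htr5b had 18.2 to 60.4 and 21.6 to 50.8. Htr2b had at most 4.7 normalized counts in a mouse, and Htr3b, the other subunit of the channel, had 3 reads in ketamine mouse 3 and 0 in the other mice.

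**Figure D5:**
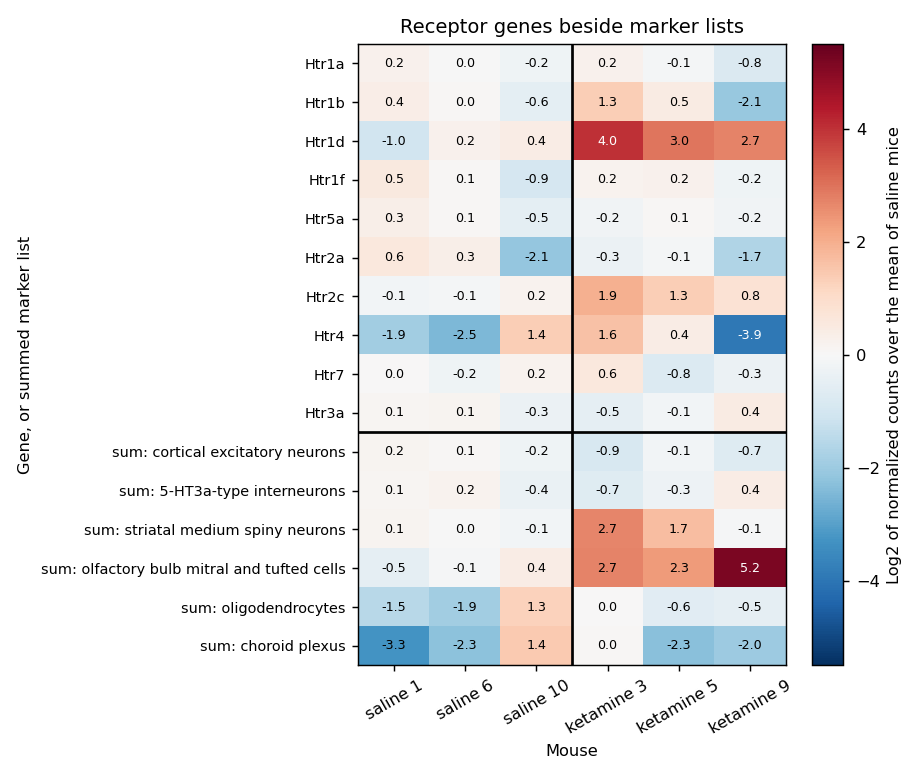
Log2 ratio of normalized counts to the mean of the saline mice, for each receptor gene (upper block) and for the sums of 6 marker lists (lower block), by mouse. Ketamine mice 3 and 5 are raised in striatal markers by 2.69 and 1.71, while mitral and tufted cell markers are raised in all 3 ketamine-treated mice, by 2.73, 2.33 and 5.16. Htr1d is raised by 4.0, 2.95 and 2.71 in ketamine mice 3, 5 and 9, and Htr2c by 1.94, 1.34 and 0.81. A relation of these genes to a marker list was not tested.

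Genes that make, carry and degrade serotonin were called by neither limma nor DESeq2. Of 10 genes in this list 6 were tested, 5 with a log2 fold change above 0 and 1 below, and all 6 overlapped between the groups. Tph2, the serotonin-synthesising enzyme of raphe neurons, had the smallest p, with 23.2 to 69.2 normalized counts in saline mice and 13.2 to 24.5 in ketamine-treated mice. Its log2 fold change was -0.93 (adjusted p = 0.945 by limma). Slc6a4, the serotonin transporter, had 0 to 0.97 normalized counts in saline and 1.88 to 4.53 in ketamine, too few to be tested, and Fev, a transcription factor of serotonin neurons, had at most 2.2. Maoa, which degrades serotonin, had 1154 to 1191 normalized counts in saline mice and 1151 to 1426 in ketamine-treated mice. Slc18a2, the vesicular monoamine transporter, had 812 normalized counts in saline mouse 10 and 4.79 to 87.1 in the other mice.

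Genes of the cascades below the receptors were given by 3 lists, and neither limma nor DESeq2 called any of them. The median log2 fold change was -0.08 over 9 genes of Gi/o transduction, -0.18 over 12 genes of Gq transduction and -0.08 over 13 genes of Gs transduction, beside -0.01 over all genes tested. In the Gi/o list the smallest p-values were those of the potassium channel genes Kcnj6 (log2 fold change -0.98), Kcnj5 (2.46) and Kcnj9 (-0.47). In the Gq list, Gnaq, the Gq alpha subunit, and Itpr3, an IP3 receptor, were among those with the smallest p-values, with log2 fold changes of -0.24 and 0.32. Gnaq had 7784 to 8920 normalized counts in saline mice and 6706 to 7466 in ketamine-treated mice, so that the groups did not overlap. Itpr3 did not overlap in the other direction, with 132 to 158 in saline and 165 to 196 in ketamine. In the Gs list the smallest p-values were those of the adenylyl cyclases Adcy1 (-1.08), Adcy9 (-1.09) and Adcy5 (0.85). Adcy1 ran from 23038 to 29640 normalized counts in saline and from 6676 to 22042 in ketamine, with no overlap. Adcy8, another cyclase, was higher in every ketamine-treated mouse, with 604 to 706 in saline and 722.5 to 930.0 in ketamine. The Gq and Gs lists thus each held 1 gene higher and 1 lower in every ketamine-treated mouse, and the Gi/o list held 0. Among all genes tested, 5.69% were higher and 4.66% lower in this way. Adcy5, the main cyclase of the striatum, stood at 15492 in ketamine mouse 3, 9401 in mouse 5 and 3231 in mouse 9, against 3856 to 4721 in saline.

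The list of partners and regulators of the receptors held 12 genes with a median of -0.12. Of these, 3 had a log2 fold change above 0 and 9 below, and neither limma nor DESeq2 called any. Adrbk1, a kinase that desensitises G-protein-coupled receptors, had 6816 to 8025 normalized counts in saline mice and 5605 to 6771 in ketamine-treated mice (log2 fold change -0.33, adjusted p = 0.865 by limma). Dlg4, the postsynaptic scaffold PSD-95, and Deaf1, a transcription factor that acts on Htr1a, had log2 fold changes of -0.21 and -0.12. S100a10 had 353 to 591 normalized counts in saline mice and 387 to 892 in ketamine-treated mice. It encodes p11, which binds 5-HT1B and 5-HT4, and was named for that role after its values were seen.

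For the 8 members whose log2 values spanned at least 1 over the 6 mice, the genes with the most similar pattern were found by the root mean square difference of log2 values, each centred on its mean over the 6 mice. With 6 mice and 16127 genes, close neighbours are found for many genes, so these are descriptions only. The nearest genes to Htr1d were Prok2 (0.30), Tacr1 (0.44) and Clec12a (0.49). Prok2, which encodes a secreted peptide, stood at 1.92, 3.86 and 4.39 normalized counts for saline mice, with 44.05, 26.3 and 32.6 for ketamine mice 3, 5 and 9. The nearest genes to Htr2c were E130309F12Rik (0.14), Rasgrp2 (0.14) and Crb1 (0.16). Rasgrp2 had 345 to 529 normalized counts in saline mice and 751 to 1726 in ketamine-treated mice. The nearest genes to Htr2a were Gm13749 (0.26), Lrriq1 (0.29) and Lzts1 (0.30), and those to Htr4 were Lrrc10b (0.51), Gbx2 (0.55) and Gpr139 (0.60). Lrrc10b reached 729 normalized counts in saline mouse 10, 867 in ketamine mouse 3 and 545 in ketamine mouse 5, the mice in which Htr4 was high, and 58.9 to 77.2 in the other mice. The nearest genes were Zfp810 (0.05), Cyb5d1 (0.05) and Hspa4l (0.07) for Htr1a, and Pgap1 (0.18), Usp29 (0.20) and AF529169 (0.22) for Htr1b. They were Ccdc87 (0.09), Chsy3 (0.10) and Gucy1a3 (0.13) for Htr1f, and Gm3164 (0.12), Zfp389 (0.15) and Resp18 (0.17) for Htr7.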

How the data were processed

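RNA from the PLc of 3 saline and 3 ketamine-treated mice was sequenced. Per the study's methods and the submitters' processing notes, the authors aligned 100 base pair paired-end reads to mm9 with TopHat2 2.0.11, counted them per gene with HTSeq and used DESeq2. What the authors deposited is a normalized signal: read counts of each gene after division by the size factor of its library. The annotation, strand setting and gene filter are not given in the sources used here. Whole reads could be recovered, since 100.0% of a library's values lay within 0.0051 normalized counts of a multiple of its smallest step.

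Log2(normalized count + 1) was compared with limma 3.58.1 in R 4.3.3 (trend in the prior variance, two-sided, Benjamini-Hochberg over all 16127 genes tested, threshold 0.05). edgeR 4.0.16 and DESeq2 1.42.0 were run on the recovered reads. Fold changes on this log scale understate the change of low genes. Single values were compared with an exact permutation test. The fits were tested on simulated data. Alternatives were pseudocounts of 0.1 and 5, no filter, a filter of 100 normalized counts, TMM and upper-quartile scaling, no trend, and each mouse left out in turn.

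Positions and exon lengths are those of GENCODE M1 on mm9, which held 37205 of 37620 identifiers. No 50-base run of a member's protein-coding transcripts was found in those of another gene. The members and gene lists were chosen with earlier results of these data known. The genes named are the members, the other serotonin receptor genes, the 3 genes of each pathway list with the smallest limma p, the 3 genes most like each variable member, and markers whose values bear on a member. Any other was named after its values were seen, as were Slc6a4, Fev, Ttr, Folr1, Clic6, Prlr, Cck, Lamp5, Ndnf, Calb2 and Adcy8. Some items that this rule names are not reported here.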

Additional observations from a re-analysis of the deposited data

How the results depend on the processing

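Of 167 values of the members under alternatives, 133 kept their direction and their side of the threshold, 6 were newly past it and 28 reversed. Htr1d and Htr2c kept their direction in all of them. limma called 0 genes and 0 members, and DESeq2 called 182 genes (1.13% of those tested) and 2 members. Without both saline mouse 10 and ketamine mouse 9, limma called 636 genes (3.96%) and 4 members (Htr1d, Htr2a, Htr2c and Htr4). These mice stood far from their groups in Htr2a and Htr4, so the calls of those genes are no test. The cause was not tested. That pair, ketamine mice 3 and 5 as a pair, and DESeq2 with a mouse left out were added after seeing the data. With ketamine mice 3 and 5 both left out, the lone ketamine mouse 9 is assumed to vary like the saline mice. With each mouse left out, limma called 0 to 1 genes and 0 members. DESeq2 called 2 members each time, but the share of all genes it called in those fits is not given here.

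The log2 fold change with each mouse left out ranged from -0.42 to 0.089 for Htr1a, -0.75 to 0.94 for Htr1b, 2.80 to 3.45 for Htr1d, -0.22 to 0.49 for Htr1f, -1.16 to 0.19 for Htr2a, 1.08 to 1.65 for Htr2c, -0.29 to 0.17 for Htr3a, -0.65 to 1.97 for Htr4, -0.31 to 0.13 for Htr5a and -0.53 to 0.13 for Htr7. Htr1b turned to 0.48 with edgeR and 0.47 with DESeq2, and Htr3a to 0.015 and 0.0028. Without saline mouse 10 and ketamine mouse 9, Htr1b was 0.69, Htr1f -0.080 and Htr7 0.017. Without ketamine mice 3 and 5, Htr1f was -0.11, Htr3a 0.46 and Htr4 -2.70. The summed Gs-coupled members turned from -0.034 to 0.0020 in the mean of log2 sums without division by length. With each mouse left out, the log2 difference of the class sums ranged from -0.16 to 0.39 for Gi/o-coupled, -0.15 to 0.69 for Gq-coupled, -0.48 to 0.22 for Gs-coupled, -0.29 to 0.17 for the ion channel and -0.085 to 0.42 for all 10 members.

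No paired analysis was possible because the mouse numbers differ between the groups. The p-values measure the spread between these 6 mice. At 4.53 to 13.2 normalized counts, as for Htr1d in saline mice and Htr4 in ketamine mouse 9, a level rests on few reads, and counting error is large beside it.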

Other observations

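Taken as a share of the summed level per kb of the 10 receptor genes in a mouse, which does not depend on library scaling, Htr2c made up 7.55%, 8.97% and 16.9% for saline mice 1, 6 and 10, with 26.9%, 22.4% and 23.9% for ketamine mice 3, 5 and 9. Htr1d made up 0.128% to 0.6205% in saline mice and 2.18% to 3.55% in ketamine-treated mice. Htr2a made up 35.6% and 34.9% in saline mice 1 and 6, 9.64% in saline mouse 10, and 12.3% to 23.6% in ketamine-treated mice. Shares sum to the same total, so a larger share of Htr2c lowers the others. Saline mouse 10 stood between saline mice 1 and 6 and the ketamine-treated mice in the share of Htr2c. Htr1a ranged from 15.3% to 20.3% in saline mice and from 13.1% to 13.6% in ketamine-treated mice, while its normalized counts overlapped between the groups. These shares were computed after the values of the members had been seen, and no test was run on them.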
